A study of Schmidtea polychroa with 132 samples.

Results

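The 100 transcript models described here are those of the freshwater planarian Schmidtea polychroa whose median level in single embryos, as a share of transcript counts, was highest at stage 7 of 8. They were selected on their own measured levels from 15124 models, as CPM (counts per 1000000 transcript counts of a library), with 3 models set aside because the rule names them. A model qualified if its median over the stage 7 embryos was at least 20 CPM and more than 2 times its stage 8 median. Models that qualified were ranked by the stage 7 median plus 1 over the highest median of all other groups plus 1, and the first 100 were kept. Of the models kept by the rule, 7103 reached 20 CPM in stage 7, and 371 of these also passed the factor over stage 8. Stage 7 held the highest median of all groups for 2171 of the 7103 and for 180 of the 371. Because the levels chose the list, the stage 7 values below, and every difference that involves stage 7, are a description and carry no test.

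The study followed development in 132 libraries made by CEL-Seq, in which RNA is barcoded per sample and reads are counted at the 3′ end of transcripts. Embryos came from capsules kept at 20 °C and opened over 15 days, and each was staged and sequenced alone, with synthetic spike-in RNAs added. The groups were 6 embryos at stage 1, 29 at stage 2, 22 at stage 3, 10 at stage 4, 13 at stage 5, 16 at stage 6, 16 at stage 7 and 15 at stage 8, with 4 libraries of yolk and 1 labelled protist. No group carried an allele or a treatment, and the capsule that each embryo came from was not given, so the spread below is that between single embryos whose independence could not be checked.

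A planarian egg capsule holds a few zygotes among a mass of separate yolk cells, and the embryo takes up these cells through a temporary pharynx. In the later part of development the temporary structures give way to the definitive ones that a hatchling carries, among them its pharynx, brain, eyes, gut and muscle. The table identifies transcripts by number alone and gives no names, so the role of a member cannot be stated here and members are called by their IDs.

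Libraries held between 8530 and 1620829 transcript counts, and their medians were 521974 counts in stage 6, 773468 counts in stage 7 and 682088 counts in stage 8. At this depth the members averaged 15.2 to 1609 reads per stage 7 library, with a median over members of 29.5 reads, so most single-embryo values rest on few reads. The proportions among the spike-ins put stage 7 and 14 stage 8 libraries in one set, stages 4 to 6 and stage 8 replicate 12 in another, and stages 1 to 3, yolk and protist in a further pair of sets. Set and stage therefore cannot be told apart between stages 3 and 4 or between stages 6 and 7. Stage 4 replicates 3 and 10 took 55.9% and 31.5% of their counts from models with at least 100 CPM in the protist library and at least 10 times any other group's median.

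Most members were near the limit of detection until stage 4, were low in stages 5 and 6, and peaked in stage 7. The median of the members' group medians was 0 CPM in each of stages 1 to 3, 0.635 CPM in stage 4, 3.92 CPM in stage 5, 4.12 CPM in stage 6, 32.0 CPM in stage 7 and 12.8 CPM in stage 8. The median was 0 for 97 members at stage 1, 93 at stage 2, 88 at stage 3, 44 at stage 4, 27 at stage 5, 31 at stage 6 and 1 at stage 8. Libraries of stages 1 to 3 were shallow, with median totals of 55929, 119738 and 181364 counts, so a median of 0 there does not show absence. With the counts of a group pooled, the median member had 0, 0.965 and 1.76 CPM in stages 1 to 3 and 33.1 CPM in stage 7. In yolk 76 members had a median of 0, and 52 had no count in any of the 4 yolk libraries. The first stage in which every member had been counted in at least 1 embryo was stage 5, since 4 members had no count in stage 4. In these whole-embryo libraries a smaller number of cells of one kind and less RNA per cell cannot be told apart.

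**Figure D1:**
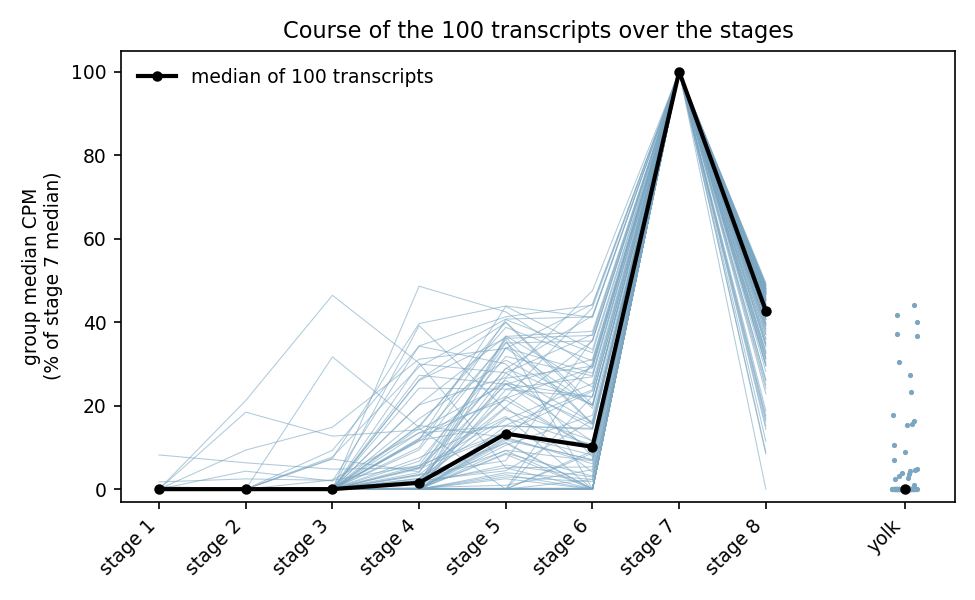
Median CPM of each of the 100 transcripts by group, as a percent of its own stage 7 median (thin lines, and dots for yolk), with the median over transcripts in black. The black line passes through 1.51% at stage 4, 13.3% at stage 5 and 10.1% at stage 6 and stands at 42.7% at stage 8.

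Relative to their own peak, the members were spread widely before it and narrowly after it. The upper edge was set by the choice of the list in every other group, as the lowest ranking ratio was 2.00. The highest member stood at 48.6% of its stage 7 median at stage 4, 47.5% at stage 6 and 49.4% at stage 8. The median member stood at 1.51% of its stage 7 median at stage 4, 13.3% at stage 5, 10.1% at stage 6 and 42.7% at stage 8. At least 25% of the stage 7 median was reached by 12 members at stage 4, 33 at stage 5, 26 at stage 6 and 87 at stage 8. The level after the peak thus lay nearer to the peak than that before it for most of the list. The stage 8 median was above the stage 6 median for 90 of the 100.

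Peaks were mostly modest. The ranking ratio had a median of 2.23 and ran over 2.00 to 31.0, was at least 3 for 19 members and at least 4 for 9, and was under 2.5 for 71. The highest median outside stage 7 was that of stage 8 for 85 members, stage 6 for 9, stage 5 for 2, and stage 3, stage 4 and yolk for 1 each, while 1 member had a median of 0 in every other group. Stage 7 medians were low in most cases, with 46 members at 20 to 30 CPM, 27 at 30 to 50 CPM, 18 at 50 to 100 CPM and 9 above that. The end of the list is not a gap in the values. The last members inside had ratios of 2.004 (FW_v1_tr_07752) and 2.000 (FW_v1_tr_11083), and the first models outside had 1.997 (FW_v1_tr_11568) and 1.997 (FW_v1_tr_14333).

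FW_v1_tr_01754 ranked first, with a median of 0 CPM in every group but stage 7. Its lowest, median and highest values were 0, 0 and 49.7 CPM in stage 6, 7.52, 30.0 and 313 CPM in stage 7, and 0, 0 and 15.0 CPM in stage 8. It was counted in 7 of 16 stage 6 embryos, 16 of 16 stage 7 embryos and 3 of 15 stage 8 embryos. Of the 497 counts it had in stage 7, 76 came from replicate 13, the library with 313 CPM, and the next highest stage 7 value was 57.6 CPM. Before stage 6 it was counted in 1 of 22 stage 3 embryos, 3 of 10 stage 4 embryos and 4 of 13 stage 5 embryos, and in none of stages 1 and 2. Of the yolk libraries 3 had no count of it and replicate 3 had 9, or 26.2 CPM.

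FW_v1_tr_13446 and FW_v1_tr_00594 had a median of 0 CPM in every stage before stage 7 and were scattered after it. Before stage 6, FW_v1_tr_13446 was counted in 2 of 10 stage 4 embryos, at up to 26.7 CPM, and in 2 of 13 stage 5 embryos, at up to 7.14 CPM. FW_v1_tr_00594 had at most 8.10 CPM before stage 7, in a stage 5 embryo. FW_v1_tr_13446 had 0, 0 and 6.14 CPM (lowest, median and highest) in stage 6, 0, 21.9 and 71.5 CPM in stage 7, and 0, 1.83 and 76.5 CPM in stage 8. FW_v1_tr_00594 had 0, 0 and 5.77 CPM in stage 6, 17.9, 24.7 and 54.5 CPM in stage 7, and 0, 3.75 and 55.0 CPM in stage 8. Both were counted in 2 of 16 stage 6 embryos and 9 of 15 stage 8 embryos. The highest stage 8 embryo passed the highest stage 7 embryo in each case, while other stage 8 embryos had no count. For FW_v1_tr_13446 the highest was replicate 10, with 10 reads in a library of 130741 counts, the fewest of stage 8. For FW_v1_tr_00594 the highest was replicate 13, with 36 reads.

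FW_v1_tr_09776 differed in being well expressed already in some stage 6 embryos. Its lowest, median and highest values were 0, 20.7 and 548 CPM in stage 6, 30.8, 125 and 330 CPM in stage 7, and 0, 20.3 and 62.5 CPM in stage 8. Of 15 stage 8 embryos 9 lay below every stage 7 embryo and the others within the lower end of stage 7, and the highest stage 6 embryo, replicate 6, lay above all of stage 7. It is the best ranked of the 9 members whose second-highest median was in stage 6.

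FW_v1_tr_13546 and FW_v1_tr_12190, at ranks 4 and 6, showed the same scatter at a low level. In lists made again without 1 stage 7 library at a time, FW_v1_tr_13546 was in 8 of 16, the lowest number of any member. FW_v1_tr_12190 was in all 16. FW_v1_tr_13546 had medians of 2.76 CPM in stage 5, 1.68 CPM in stage 6, 20.6 CPM in stage 7 and 1.83 CPM in stage 8, with highest embryos of 32.9, 41.3, 54.6 and 84.1 CPM in the same order of stages. FW_v1_tr_12190 had 0, 0 and 30.0 CPM in stage 6, 0.932, 21.7 and 37.0 CPM in stage 7, and 0, 3.66 and 45.9 CPM in stage 8. In both the highest embryo of stage 8 stood above every stage 7 embryo. It was replicate 10 each time, with 11 and 6 reads in the library with the fewest transcript counts of stage 8 (130741).

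**Figure D2:**
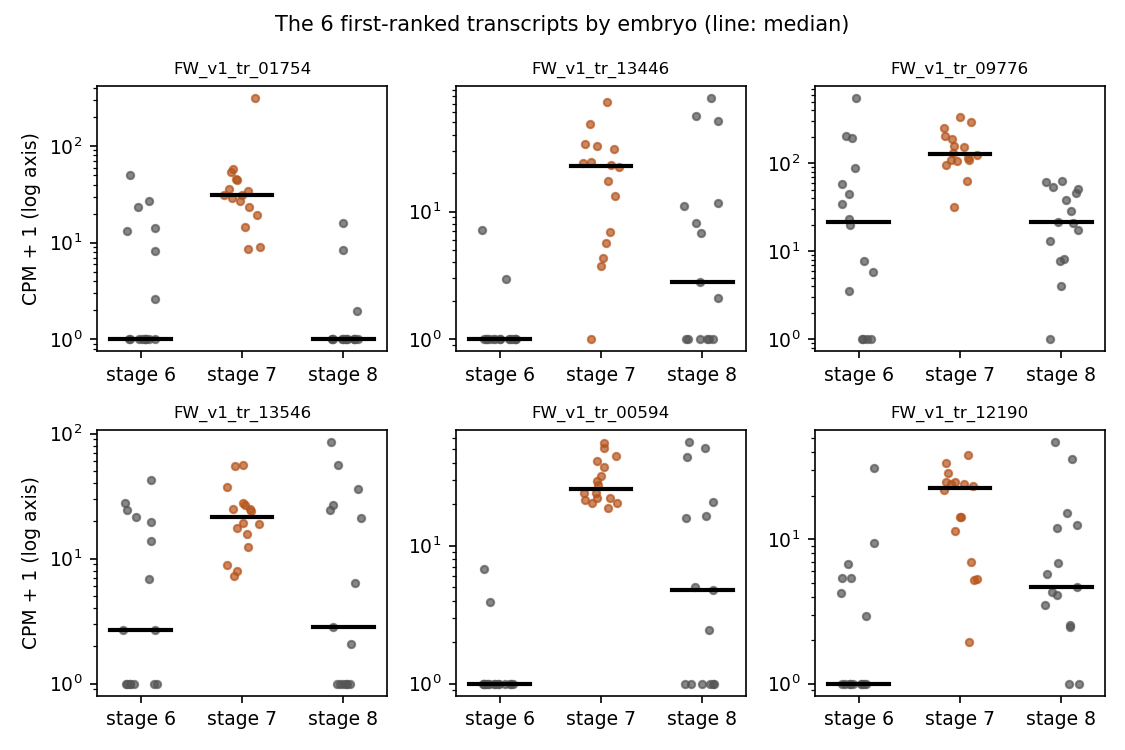
CPM plus 1 on a log axis for the 6 first-ranked transcripts, 1 point per embryo of stages 6, 7 and 8, with the median as a line. In FW_v1_tr_09776 every stage 7 embryo was at 30.8 CPM or more. In FW_v1_tr_13446, FW_v1_tr_13546, FW_v1_tr_00594 and FW_v1_tr_12190 the highest stage 8 embryo lay above the highest stage 7 embryo. That stage 8 embryo was replicate 10, the shallowest library of its stage, in all of these but FW_v1_tr_00594.

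The most abundant members kept a clear level in stage 8. FW_v1_tr_12538 had the highest stage 7 median of the list, and was picked for mention after its values were seen. It had 0, 3.96 and 2831 CPM (lowest, median and highest) in stage 6, 372, 1681 and 2763 CPM in stage 7, and 383, 735 and 2104 CPM in stage 8. Stages 7 and 8 overlapped over nearly their whole range, while 15 of 16 stage 6 embryos stood at 614 CPM or less and replicate 6 alone lay above all of stage 7.

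FW_v1_tr_03915 and FW_v1_tr_03527 were the steadiest members among stage 7 embryos. FW_v1_tr_03915 had 670, 1023 and 1718 CPM (lowest, median and highest) in stage 7, and FW_v1_tr_03527 had 24.1, 37.8 and 63.1 CPM. Their ranges were 1.36 and 1.35 on the log2(CPM + 1) scale. FW_v1_tr_03915 was also counted from the start, with medians of 17.7 CPM in stage 1 (14 counts in all), 25.1 CPM in stage 2, 21.6 CPM in stage 3, 57.9 CPM in stage 4, 141 CPM in stage 5, 240 CPM in stage 6 and 505 CPM in stage 8. In the 4 yolk libraries it had 13.0, 38.2 and 72.8 CPM (lowest, median and highest), with the median above those of stages 1 to 3. The part of yolk in its early levels was not tested. At the other end, FW_v1_tr_04301 ran over 0 to 147 CPM and FW_v1_tr_04353 over 0 to 139 CPM in stage 7, ranges of 7.21 and 7.13 on that scale. The zeros behind these wide ranges are counts of 0 in 1 stage 7 embryo for FW_v1_tr_04301 and in 2 for FW_v1_tr_04353.

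FW_v1_tr_08776 and FW_v1_tr_08434 were the members whose highest median outside stage 7 lay in stage 3 and in stage 4. FW_v1_tr_08776 had medians of 9.64 CPM in stage 2, 21.1 CPM in stage 3, 13.7 CPM in stage 4, 2.32 CPM in stage 5, 2.42 CPM in stage 6, 45.4 CPM in stage 7 and 15.0 CPM in stage 8, so it had an early level, a low in stages 5 and 6 and a later peak. In the 4 yolk libraries it had 13.0, 45.2, 20.4 and 5.72 CPM. FW_v1_tr_08434 had medians of 28.9 CPM in stage 4, 25.2 CPM in stage 5, 17.2 CPM in stage 6, 59.4 CPM in stage 7 and 22.0 CPM in stage 8. Its medians in the 4 stages around the peak thus lay within 17.2 to 28.9 CPM.

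FW_v1_tr_10333 was the only member whose highest other median was in yolk. It had 1484, 160, 108 and 78.2 CPM in the 4 yolk libraries, and medians of 26.2 CPM in stage 1, 20.2 CPM in stage 2, 15.3 CPM in stage 3, 16.3 CPM in stage 4, 54.4 CPM in stage 5, 34.0 CPM in stage 6, 320 CPM in stage 7 and 125 CPM in stage 8. Its stage 8 embryos lay between 3.03 and 627 CPM and its stage 7 embryos between 74.6 and 736 CPM. In stage 2, replicate 3 had 4739 CPM of it, which were 72 of only 15194 counts, and the next highest stage 2 embryo had 444 CPM.

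Traces in the protist library were limited to FW_v1_tr_08473 and FW_v1_tr_01959, with 1 count each, and together they made up 0.00116% of its transcript counts. FW_v1_tr_08473 had medians of 24.6 CPM in stage 6, 55.7 CPM in stage 7 and 16.4 CPM in stage 8, and FW_v1_tr_01959 had 4.28, 27.7 and 13.1 CPM in these stages. The other 98 members had no count there, where a count of 0 allows up to 17.3 CPM (3 counts of 173054, for counting error alone).

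Summed over the list, the members took a mean share of 0.143% ± 0.072 (SD) of transcript counts over 13 embryos of stage 5, 0.179% ± 0.164 over 16 embryos of stage 6, 0.845% ± 0.098 over 16 embryos of stage 7 and 0.471% ± 0.142 over 15 embryos of stage 8. Mean shares in stages 1 to 4 were 0.0496% to 0.0792%, and that in yolk was 0.0766%. In stage 2, replicate 3 had 0.507%, within the stage 8 range, where 72 of its 77 member counts were of FW_v1_tr_10333. A single stage 8 embryo, replicate 10 at 0.792%, lay above the lowest stage 7 embryo, and 5 of 16 stage 7 embryos lay below it. Its library had the fewest transcript counts of stage 8, 130741. In stage 6 only replicate 6 reached the stage 7 range, at 0.699%, and the next highest embryo had 0.317%. FW_v1_tr_12538 made up 40.5% of that library's member counts, and FW_v1_tr_11599 and FW_v1_tr_09776 were next. Its total of 173447 counts was below the stage median of 521974.

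**Figure D3:**
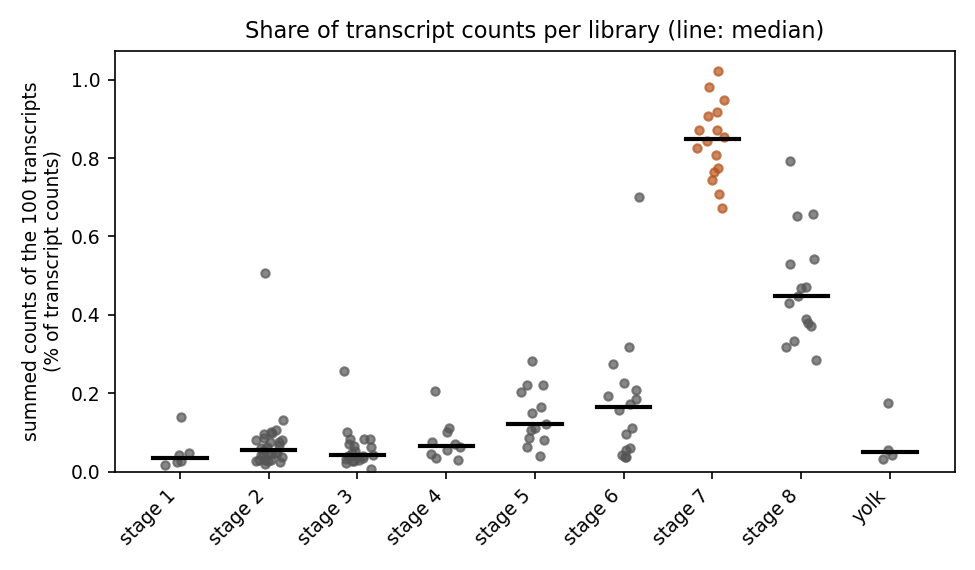
Summed counts of the 100 transcripts as a percent of each library's transcript counts, 1 point per library, with group medians as lines. In stage 6, 1 embryo at 0.699% stands apart from the other 15, stage 7 embryos lie between 0.672% and 1.02%, and stage 8 embryos lie between 0.284% and 0.792%.

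As single transcripts, the members overlapped between stages 7 and 8 far more than as a sum. For 0 of 100 members did all stage 8 embryos lie below all stage 7 embryos, against 0.0141% of all 7103 models with a stage 7 median of at least 20 CPM. For 91 members at least 1 stage 8 embryo stood above the stage 7 median, with a median of 3 of 15 such embryos and at most 7. A count was found in every embryo for 2 members at stage 6, 70 at stage 7 and 25 at stage 8.

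The choice of medians shapes this picture, and the mean draws it less sharply. Stage 8 over stage 7 was 0.427 in the median member as a ratio of group medians and 0.557 as a ratio of group means. By means 99 of 100 members were still lower in stage 8, but only 30 were under 0.5 times stage 7. A list ranked by group means shared only 28 of the 100 members, so which models are in the list depends on the use of medians. Lists made without 1 stage 7 library at a time shared 83 to 89 members with the full list, and 65 members were in all of them. In the left-out library itself 70 to 93 of 100 transcripts (median 82) were above their highest median elsewhere, against 29.8% to 33.8% of all models at 20 CPM or more. Above 2 times the stage 8 median were 40 to 62 (median 54), against 7.67% to 17.3% of all models. The median ratio was 1.40 to 2.44 in left-out libraries, against 2.20 to 2.30 in the lists chosen without them. The medians of the other groups still chose each of these lists, so the counts describe it and do not test it.

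Depth within stage 7 moved with where a member had its highest value. Replicates 3 and 13, with 237880 and 242935 transcript counts, were the shallowest stage 7 libraries and held the highest stage 7 value of 22 and 18 members. The deepest, replicate 14 with 1620829 counts, held that of 0 members. The part of depth in the medians was not tested beyond the lists made without each library.

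CPM give a share of an embryo's transcript counts, and counts per spike-in count give a different course after the peak. Transcript counts per spike-in count had medians of 9.14 at stage 6, 31.3 at stage 7 and 59.3 at stage 8. On the spike-in scale, 61 members were lower and 39 higher in stage 8 than in stage 7, the median stage 8 over stage 7 ratio was 0.903, and 9 members were under 0.5. Without stage 8 replicate 12, the library outside the spike-in set of stage 7, 54 members were lower and the median ratio was 0.974. Among all 7103 models at 20 CPM or more in stage 7, the median ratio was 1.92 and 4.28% were lower per spike-in count, against a ratio of 0.908 and 62.9% lower in CPM. The members thus stood low among all models on both scales, as their choice fixed, but on the spike-in scale 39 were not lower.

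**Figure D4:**
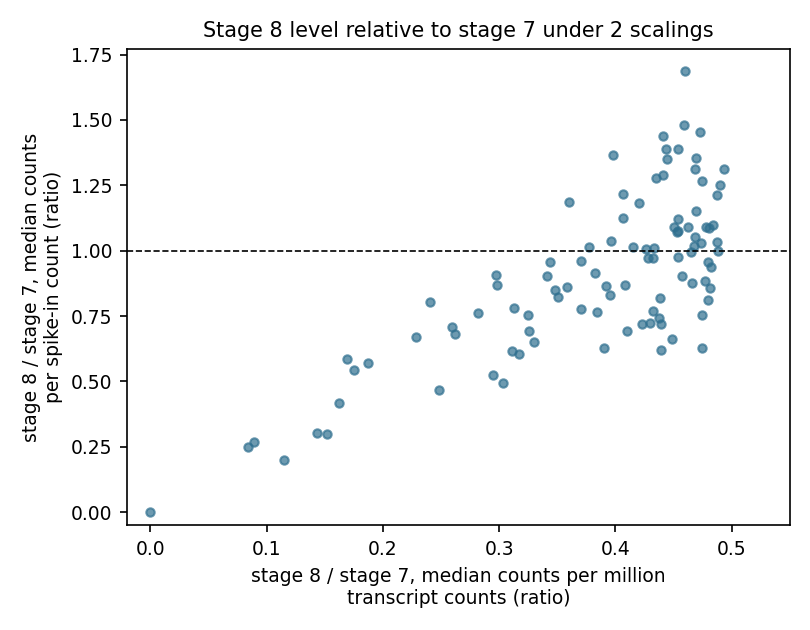
Stage 8 over stage 7 for each of the 100 transcripts, as the ratio of median CPM (x axis) and of median counts per spike-in count (y axis), with a dashed line at 1. All points lie under 0.5 on the x axis because the rule requires it, and 39 lie above 1 on the y axis.

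Whether members stayed above their earlier level after the peak was asked by comparing stage 8 with stage 6, whose order the rule did not use, though both medians entered it as values to be exceeded. Of the 100 members, 30 passed the filter on low counts. With edgeR's quasi-likelihood test and Benjamini-Hochberg adjustment over 7543 models, 11 members were higher in stage 8 and 0 lower, against 26.2% of all tested models higher and 26.1% lower. At an unadjusted p under 0.05 there were 15 of the 30 members, against 4403 of the 7543 models. Without stage 6 replicate 6, left out after its share was seen, 10 of 26 tested members were higher, 9 of them among the 11. In that setting 2151 of 7436 models were higher and 1807 lower. The log2 changes of the tested members ran from -1.46 to 4.70, with a median of 0.80 against -0.03 over all tested models. The filter asked for at least 16.9 CPM in 14 libraries. Stage 8 alone met it for 7 of the 30, of which 6 were among the 11. Entry through stage 8 alone favours members with the higher level there. Stage 6 alone met it for 1 member, which was not called, both stages together for 21, with 4 called, and each stage by itself for 1. Neither the count nor the median therefore speaks for the list. Stages 6 and 8 are in different spike-in sets, and the set and the stage cannot be told apart.

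The member that passed the filter in either stage by itself was FW_v1_tr_03915, so its entry into the test did not depend on a difference, and it was singled out after the values were seen. It had 222, 505 and 1093 CPM (lowest, median and highest) in stage 8 and 12.3, 240 and 516 CPM in stage 6. The ranges overlapped, and 14 of 15 stage 8 embryos were above the stage 6 median. Its log2 change was 1.31 ± 0.35 (SE; edgeR, adjusted p = 0.00176).

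FW_v1_tr_13875 and FW_v1_tr_07852 had the largest fitted changes of the calls. Both passed the filter through stage 8 alone, so their differences are given as a description with no test. FW_v1_tr_13875 had 33.7, 92.8 and 473 CPM (lowest, median and highest) in stage 8 and 0, 0 and 60.9 CPM in stage 6, where 13 of 16 embryos had no count. Only the highest stage 6 embryo reached the stage 8 range, and the fitted log2 change was 4.70 ± 0.65 (SE). In stage 3, where its median was 0, replicate 3 had 2234 CPM of it, above its highest stage 7 embryo at 513 CPM. These were 39 of only 17460 counts, and the next highest stage 3 embryo had 18.1 CPM.

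FW_v1_tr_07852 had 66.1, 146 and 732 CPM in stage 8 and 0, 5.76 and 121 CPM in stage 6, and the groups overlapped at their ends. Its fitted log2 change was 3.66 ± 0.55 (SE). Its counts agreed within sampling noise with those of the model FW_v1_tr_07851, so the reads may have been shared between them and the level of either is uncertain. The other 9 calls were smaller, down to a log2 change of 1.10.

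Before the peak little could be called. From 12 members tested among 6609 models, stage 6 against stage 4 gave 1 higher and 0 lower by edgeR, against 0.484% of all models higher and 1.04% lower. The median log2 change was 0.23 in these members and 0.09 in all models. An unadjusted p under 0.05 was found for 3 of the 12 members, against 1008 of the 6609 models. The member called was FW_v1_tr_11599, with 0, 36.1 and 588 CPM (lowest, median and highest) in stage 6 and 0, 2.78 and 38.1 CPM in stage 4. Its stage 6 embryos spanned the whole stage 4 range and 14 of 16 were above the stage 4 median. It passed the filter through stage 6 alone, so the difference is a description. The log2 change was 3.92 ± 0.93 (SE) in the fit that called it. It was 3.96 with no call (edgeR, adjusted p = 0.106) without the 2 stage 4 libraries rich in protist-high models. Of all 7356 models tested there, 1 was called higher and 10 lower. With spike-in totals as library sizes it was 3.55 with no call (edgeR, adjusted p = 0.513), and 0 of all 6609 models were called. FW_v1_tr_11599 was among the most abundant members later, with medians of 307 CPM in stage 8 and 775 CPM in stage 7.

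Stage 4 against stage 3 could be tested for 1 member, and edgeR called 0, against 14.4% of 4060 models higher and 24.2% lower. That member, FW_v1_tr_03915, had 8.01, 57.9 and 184 CPM (lowest, median and highest) in stage 4 and 0, 21.6 and 172 CPM in stage 3, and the groups overlapped over most of their range. Its log2 change was 1.15 ± 0.51 (SE; edgeR, adjusted p = 0.0669), its unadjusted p was 0.0289, and DESeq2 called it. The other 99 members did not pass the filter. For the contrasts the rule used, the same test put 17 of 96 tested members lower and 0 higher in stage 8 than in stage 7, against 1.74% and 4.39% of 8892 models. It put 52 of 74 higher and 0 lower in stage 7 than in stage 6, against 26.6% and 23.5% of 7700 models. Nothing is read from these counts, since the list was drawn from the same values.

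Among the 16 stage 7 embryos, 18 members formed the largest group that varied together. This group was found after the values were seen, by grouping members on the Spearman correlation of their CPM between stage 7 embryos (average linkage, cut at a distance of 0.5), and the next largest group held 4. FW_v1_tr_13446, FW_v1_tr_04301, FW_v1_tr_10333, FW_v1_tr_07852, FW_v1_tr_08776 and FW_v1_tr_13875 belong to it. The median correlation between its members was 0.68 over the 16 stage 7 embryos, against 0.009 between the other 82 members. In stage 8, which had no part in the grouping, it was 0.60 over 15 embryos, against 0.051. In stage 6 it was 0.46 over 16 embryos against 0.31, and in stage 5 0.47 over 13 against 0.17. These correlations share each library's depth and are given as a description.

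Several models of the group may have shared reads. FW_v1_tr_11056, FW_v1_tr_10751 and FW_v1_tr_02688, named here for that reason, had counts equal within binomial noise to each other and to FW_v1_tr_04075, a model outside the list. With each such set counted once the median correlation was 0.64 in stage 7 and 0.58 in stage 8. In all, 9 of the members deep enough to check had counts that matched another model, and most of them belong to the group. FW_v1_tr_05893, FW_v1_tr_07852, FW_v1_tr_14163 and FW_v1_tr_09688 of the group each matched a model outside the list. Among the other 82 members only FW_v1_tr_14164 and FW_v1_tr_13092 had a match. These IDs too are given for that reason.

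The 18 members showed a wide and uneven level in both late stages. Their summed CPM had a lowest, median and highest value of 468, 674 and 3458 in stage 8 and 471, 1763 and 4137 in stage 7. In stage 8 the embryos fell apart into 4 with 1741, 3319, 3350 and 3458 CPM (replicates 9, 8, 10 and 1) and 11 with 468 to 936 CPM. In stage 7, 4 embryos (replicates 5, 6, 7 and 8) had 471 to 931 CPM and the other 12 had 1626 to 4137 CPM. The 2 stages overlapped over nearly the whole range, and the high stage 8 embryos stood within the stage 7 range, replicate 9 of them just below the stage 7 median of 1763 CPM.

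The other 82 members separated the stages more cleanly. Their summed CPM was 2322, 3167 and 4775 (lowest, median and highest) in stage 8 and 4794, 6573 and 7653 in stage 7. All 16 stage 7 embryos were above the highest stage 8 embryo, by a narrow margin at the ends and by construction of the list in direction. Stage 8 over stage 7 as a ratio of means was 0.659 in the median member of the 18 and 0.546 in that of the 82.

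**Figure D5:**
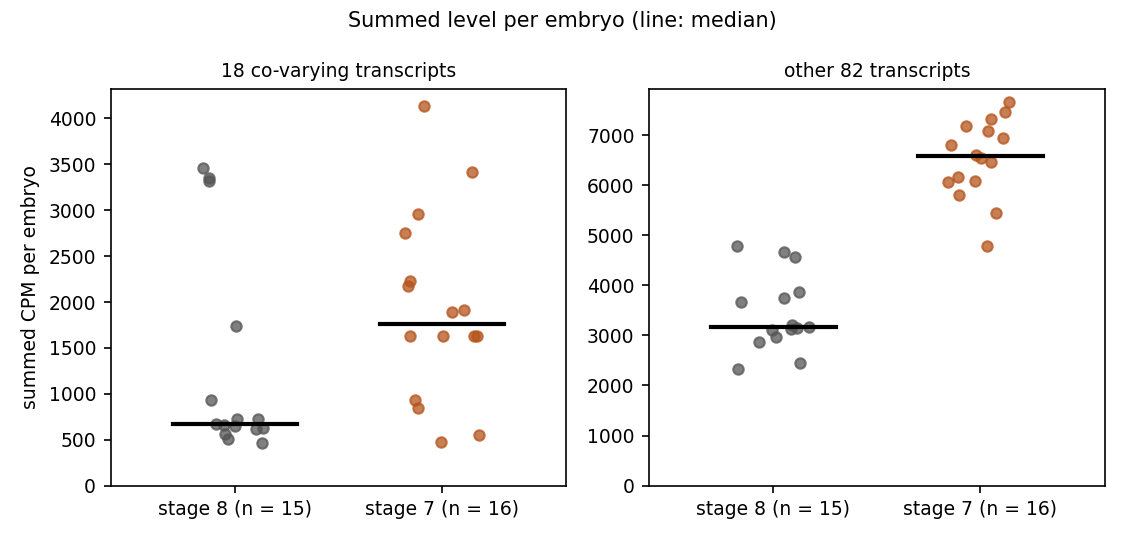
Summed CPM per embryo of the 18 transcripts that varied together in stage 7 (left) and of the other 82 (right), in stage 8 and stage 7, with medians as lines. On the left 4 stage 8 embryos at 1741 to 3458 CPM stand among the stage 7 embryos, while on the right the stages meet at 4775 and 4794 CPM without overlap.

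Measures of the libraries moved with the level of the 18. In the 4 high stage 8 embryos 35.4%, 41.2%, 48.3% and 40.7% of reads were counted as not aligned (replicates 9, 8, 10 and 1), against 31.6% to 38.2% in the other 11. Models high in yolk, 559 with a yolk median of at least 100 CPM and at least 5 times those of stages 7 and 8, took 1.13%, 1.78%, 1.95% and 1.56% of their transcript counts, against 0.770% to 1.24%. In stage 7 the 12 high embryos had 34.1% to 45.6% of reads not aligned, against 32.4% to 36.1% in the 4 low ones. The yolk-high share was 1.03% to 1.61% in those 12 and 0.834% to 0.972% in those 4. The part of these measures in the level of the 18 was not tested.

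The pattern reached beyond the list. Of 7003 other models with a stage 7 median of at least 20 CPM, 73 had a Spearman correlation above 0.7 with the 18 in stage 7. The level of the 18 was taken here as the mean of their centred log2(CPM + 1) values, not as their summed CPM. Of the 73, 32 were also above 0.7 in stage 8. The highest group median of the 73 lay in stage 7 for 29 and in yolk for 24. Of the 18 themselves, FW_v1_tr_10333 had its second-highest median in yolk. In stage 8 against stage 6, 10 of the 18 could be tested and 6 were called higher, and 20 of the 82 could be tested and 5 were called higher, against 26.2% of all tested models. Of the calls among the 18, FW_v1_tr_10333, FW_v1_tr_07852, FW_v1_tr_02048, FW_v1_tr_04323 and FW_v1_tr_13875 passed the filter through stage 8 alone. So did FW_v1_tr_11599 among the 82, and these IDs are given for that reason. Such entry favours a higher level in stage 8, so nothing is read from either count beside the 26.2%. Whether the shares differ was not tested.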

How the data were processed

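The authors' deposited table held whole-number read counts per transcript model, spike-in and HTSeq counter, with no scaling. The submitters' processing notes name CASAVA 1.8 and Bowtie2 2.1.0, and HTSeq 0.5.4p3. Strand and use of molecular identifiers are not given in the sources used here. The build named there belongs to Drosophila, so no coordinates are given. Reads that did not align made up 63.6% of the table, and reads outside every feature 2.56%. Counters, spike-ins and 3 models were kept out of library totals. CPM were computed from the rest.

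The members and lists were chosen with earlier results of these data known. Groups follow the labels, and replicate numbers were given in deposition order and do not pair samples. Tests used edgeR 4.0.16 in R 4.3.3 on all models and only the libraries of both stages (TMM, filterByExpr, robust quasi-likelihood F test, Benjamini-Hochberg adjusted p under 0.05), tested on simulated data first. Libraries under 5% of the median total (336516 counts) were left out of the tests. The p-values measure the spread between single embryos. Spike-in sets came from Ward clustering of log2 proportions of 26 spike-ins into 4 clusters. Models were taken to share reads where counts were equal by a chi-square test (p above 0.01). Alternatives used DESeq2 1.42.0, RLE factors, other filters and left-out libraries.

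Transcripts were named by rule. The rule took the first 6 ranks, 2 on each side of the end of the list, and the best ranked for each group that held a second-highest median. It also took at most 2 per tested comparison and direction with at least 10 CPM in the higher group, the 2 widest and 2 narrowest in stage 7, and at most 2 in the protist library. The deposited barcode list was not used. The table pairs no ID with a name or sequence, so none is given.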

Additional observations from a re-analysis of the deposited data

Results flagged for a closer look

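The summed share of the 100 members was examined for a sample far from its group in the 3 groups of 4 to 10 libraries and for the number of members detected, 6 group measures in all, and 3 libraries stood apart. Chance alone flags about 1 in 20 groups. In stage 1, replicate 2 had 0.139% of its transcript counts in members, against 0.0163% to 0.0469% in the other 5 embryos. It rests on 18 of 12942 counts, of which FW_v1_tr_14550 had 7 and FW_v1_tr_08620 had 5. In stage 4, replicate 1 had 0.207%, against 0.0292% to 0.111% in the other 9 embryos. This came from 1629 counts spread over 88 members, with at most 145 in FW_v1_tr_03915, and its total of 787451 counts was among the higher ones of the stage. In yolk, replicate 1 had 0.176%, against 0.0322% to 0.0563% in the other 3 libraries. FW_v1_tr_10333 supplied 114 of its 135 member counts. These transcripts were picked for mention after their values were seen, apart from FW_v1_tr_03915 and FW_v1_tr_10333.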

How the results depend on the processing

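By group means 28 of the 100 members were in the new list. TMM-scaled CPM shared 78, an added constant of 5 shared 94, and leaving out 1 stage 7 library shared 83 to 89. A stage 7 median of at least 50 CPM shared 27, a number fixed in advance. Only 100 models passed that level, and the list holds 18 members at 50 to 100 CPM and 9 above that. Lower in stage 8 were 61 members per spike-in count, and 54 without stage 8 replicate 12, an alternative chosen after seeing the data. In stage 8 against stage 6, the 11 calls became 34 with no filter (33 higher, 1 lower), beside 3610 higher and 3070 lower of 15110 models. They became 20 with at least 10 counts in 50% of a group's libraries, beside 2721 higher and 2224 lower of 8872 models, and both settings tested more members. Size factors moved the median log2 change of all models by over 0.1 there, to 0.32 with RLE and 0.33 with DESeq2, with 2628 higher and 1410 lower and 2828 higher and 1545 lower, against 1974 and 1965. In stage 6 against stage 4 the 1 call became 4 with no filter (182 higher and 224 lower of 14816 models). It became 0 without the 2 protist-rich stage 4 libraries (1 higher and 10 lower of 7356 models). With spike-in totals as library sizes it became 0, where 0 of 6609 models were called in all. In the last 2 settings FW_v1_tr_11599 had log2 changes of 3.96 and 3.55, against 3.92. Its edgeR adjusted p-values there were 0.106 and 0.513, and the cause was not tested. In stage 4 against stage 3, 0 calls became 1 with DESeq2 (1490 higher and 705 lower of 4060 models) and 1 with RLE (1373 and 568). They became 30 with no filter (28 higher, 2 lower, beside 2556 higher and 1346 lower of 14621 models). In libraries above 25% of the median total 1 was called (605 higher and 972 lower of 4423 models). Without the protist-rich libraries it was 1 (744 higher and 888 lower of 4821 models). Without the stage 6 library highest in members, also left out after seeing the data, 10 members were called in stage 8 against stage 6, 9 of them among the 11. Beside them stood 2151 higher and 1807 lower of 7436 models. In stage 6 against stage 4 it was 1 member, beside 16 higher and 65 lower of 6491 models. The co-varying group had 14 members at a cut of 0.4 and 20 at 0.6. No paired analysis was possible because the replicate numbers follow the order of deposition. Most members rest on around 29.5 reads per stage 7 embryo, so a missing count in an embryo does not show absence.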
